A study of Mus musculus with 16 samples.

Results

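The genes of 10 G protein gamma subunits (Gng2, Gng3, Gng4, Gng5, Gng7, Gng8, Gng10, Gng11, Gng12 and Gng13) were followed through the skeletal muscle and cortical bone of aged mice given an inhibitor of the aryl hydrocarbon receptor (AhR). Members were taken by gene name from the 2 deposited expression tables. All 10 had a row among the 38933 genes of cortical bone, and 9 of the 10 had a row among the 21011 genes of skeletal muscle, where Gng13 was not listed. RNA was sequenced from 16 libraries, 4 per tissue and treatment. All mice were female C57BL/6, aged 18 months when treatment began. BAY-treated mice received BAY2416964, an AhR antagonist, by oral gavage at 30 mg/kg, on 5 days of each week over 8 weeks, and VEH-treated mice received the carrier of ethanol, Solutol and water on the same days. The muscle was the tibialis anterior, and the bone was the cortical shaft left after marrow cells had been removed and the shaft digested with collagenase. The labels and methods do not say whether muscle and bone came from the same mice, and the tables were normalized separately, so no test was made between tissues. Both tables hold whole tissue, in which fewer cells of a type and less RNA per cell cannot be told apart.

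A heterotrimeric G protein passes the signal of an activated cell-surface receptor into the cell. When the receptor acts, the alpha subunit separates from a tight pair of a beta and a gamma subunit, and the beta-gamma pair then acts on ion channels, phospholipase C beta, adenylyl cyclases, phosphoinositide 3-kinase gamma and receptor kinases. The gamma subunit is a small protein that ends in a cysteine and 3 further residues, the CaaX box, and a lipid added to that cysteine anchors the pair in the membrane. The last residue of the box sets which lipid is attached. Leucine directs geranylgeranyl, and serine directs farnesyl, the shorter lipid carried by the products of Gng11 and of the photoreceptor genes Gngt1 and Gngt2. Members also differ by tissue: Gng2, Gng5, Gng10, Gng11 and Gng12 are widely expressed, Gng3, Gng4 and Gng7 are best known from neurons, Gng8 from olfactory and vomeronasal neurons and Gng13 from olfactory and taste cells.

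The ends of the coding sequences are shown because this is where the subunits separate into lipid classes. Each run is 15 bases, 5′ to 3′, read from GENCODE M39 on GRCm39. It holds the cysteine codon first, then the rest of the CaaX box, with the codon of the last residue in capitals, and then the stop codon. Gng11, Gngt1 and Gngt2 end in a serine codon (TCA or AGC), and the other 9 genes end in a leucine codon.
Gng2 final codons: tgcgccatcCTTtaa
Gng3 final codons: tgtgcgctcCTCtga
Gng4 final codons: tgcaccatcCTCtaa
Gng5 final codons: tgctcctttTTGtag
Gng7 final codons: tgcataattCTCtag
Gng8 final codons: tgcaccctgCTCtga
Gng10 final codons: tgtgctctaCTTtga
Gng12 final codons: tgcatcatcTTAtag
Gng13 final codons: tgcaccatcCTAtga
Gng11 final codons: tgtgtcattTCAtaa
Gngt1 final codons: tgtgtgattTCAtag
Gngt2 final codons: tgtgtgctaAGCtga

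The whole coding sequences of 4 members are given because the results turn on them: Gng5, Gng12 and Gng11 led in level, and Gng10 was called in bone. Capitals mark the 12 bases of the CaaX box.
Gng5 coding sequence: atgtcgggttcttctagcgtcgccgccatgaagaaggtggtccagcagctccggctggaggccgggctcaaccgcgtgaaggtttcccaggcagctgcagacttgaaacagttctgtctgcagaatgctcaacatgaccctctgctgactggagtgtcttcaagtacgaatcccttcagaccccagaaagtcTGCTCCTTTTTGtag
Gng12 coding sequence: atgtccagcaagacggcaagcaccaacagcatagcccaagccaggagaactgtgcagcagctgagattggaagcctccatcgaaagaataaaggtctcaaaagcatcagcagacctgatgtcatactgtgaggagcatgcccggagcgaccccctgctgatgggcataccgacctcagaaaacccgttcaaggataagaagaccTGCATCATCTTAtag
Gng11 coding sequence: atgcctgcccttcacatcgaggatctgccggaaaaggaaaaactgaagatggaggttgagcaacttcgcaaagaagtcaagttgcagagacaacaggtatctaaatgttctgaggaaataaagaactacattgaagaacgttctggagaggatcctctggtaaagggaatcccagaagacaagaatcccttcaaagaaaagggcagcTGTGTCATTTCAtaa
Gng10 coding sequence: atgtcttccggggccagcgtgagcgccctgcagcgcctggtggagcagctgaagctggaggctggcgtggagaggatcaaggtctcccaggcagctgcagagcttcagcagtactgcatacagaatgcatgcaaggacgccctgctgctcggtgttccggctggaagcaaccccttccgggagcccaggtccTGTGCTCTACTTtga

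The coding sequences ran from 204 bases in Gng13 to 228 bases in Gng3 and Gng4. The closest pairs among the 12 gamma genes were Gng2 and Gng4, with 73.7% of aligned positions identical, and Gng11 and Gngt1, with 73.3%. No member thus had a near-identical copy among the other members. Gng5 was different in that its coding sequence matched 5 other places of the genome at 95.7% to 98.6% identity over 207 aligned bases. These matches lie in the processed pseudogenes Gm3150, Gng5-ps and Gm13342, in Gng5c, and on chromosome 8 where no gene is annotated. The authors' counting, by Partek's E/M method, can divide reads between such copies. The division it made here is not given in the sources used here, so the level of Gng5 carries that uncertainty. No other gamma gene had such a match of at least 100 bases at 95% identity.

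The deposited values were log2 of CPM plus an offset, where CPM are read counts per 1000000 reads on genes of the library. The reads behind each value were recovered from the CPM that 1 read was worth in each library. Reads counted on genes came to 6131903 to 9262241 per library in skeletal muscle and to 930311 to 6951845 in cortical bone. The floor was set at 3 reads, which covers counting error only. It stood at 0.324 to 0.489 CPM in muscle and at 0.432 to 3.23 CPM in bone. In bone, VEH replicate 1 stood apart, with the most reads and with olfactory receptor genes, best known from the olfactory epithelium, at 0.132 CPM per kb of exon against 1.40 to 9.07 CPM per kb in the other 7 libraries. Skeletal muscle fibre markers (8 of 8 in the table) summed to 32.0 to 6893 CPM in bone of VEH-treated mice and to 73.0 to 33320 CPM in bone of BAY-treated mice, and osteoblast and osteocyte markers (7 of 7) to 949 to 21610 CPM and to 1090 to 15360 CPM. In the tibialis anterior the muscle fibre markers summed to 97990 to 168300 CPM.

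In skeletal muscle, Gng5 was the main gamma subunit mRNA. Per kb of exon, Gng5 stood at 12.2 ± 3.91 CPM per kb in VEH-treated mice and at 9.61 ± 1.03 CPM per kb in BAY-treated mice (SD, n = 4 each). Gng12 followed at 2.13 ± 0.837 and 1.65 ± 0.393 CPM per kb, and Gng11 at 1.94 ± 0.433 and 1.63 ± 0.508 CPM per kb. Gng5 therefore lay above Gng12 in 8 of 8 libraries, and the lowest Gng5 level was above the highest level of any other member. Gng12 lay above Gng11 in 5 of 8 libraries, so these 2 neighbours could not be ordered. Gng11 lay above Gng2 in 7 of 8 libraries, Gng2 above Gng7 in 7 of 8, and Gng7 above Gng3 in 8 of 8. Below Gng7 the order of Gng3, Gng10, Gng8 and Gng4 did not hold from library to library.

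As a share of the summed CPM per kb of the 9 members, Gng5 took 67.6% ± 3.37 in VEH-treated and 64.8% ± 2.93 in BAY-treated muscle (SD, n = 4 each). Over the 8 libraries its share ran from 60.5% to 72.1%. Gng12 took 8.62% to 13.6%, Gng11 7.15% to 16.7%, Gng2 2.37% to 7.92% and Gng7 1.96% to 4.58% of the sum. The 4 members listed with few reads, Gng3, Gng4, Gng8 and Gng10, each stayed at or below 3.37% in every library. The farnesyl class, which among the members is Gng11 alone, was thus a minor part of the gamma mRNA of muscle, and the leucine-ending genes made up the rest.

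**Figure D1:**
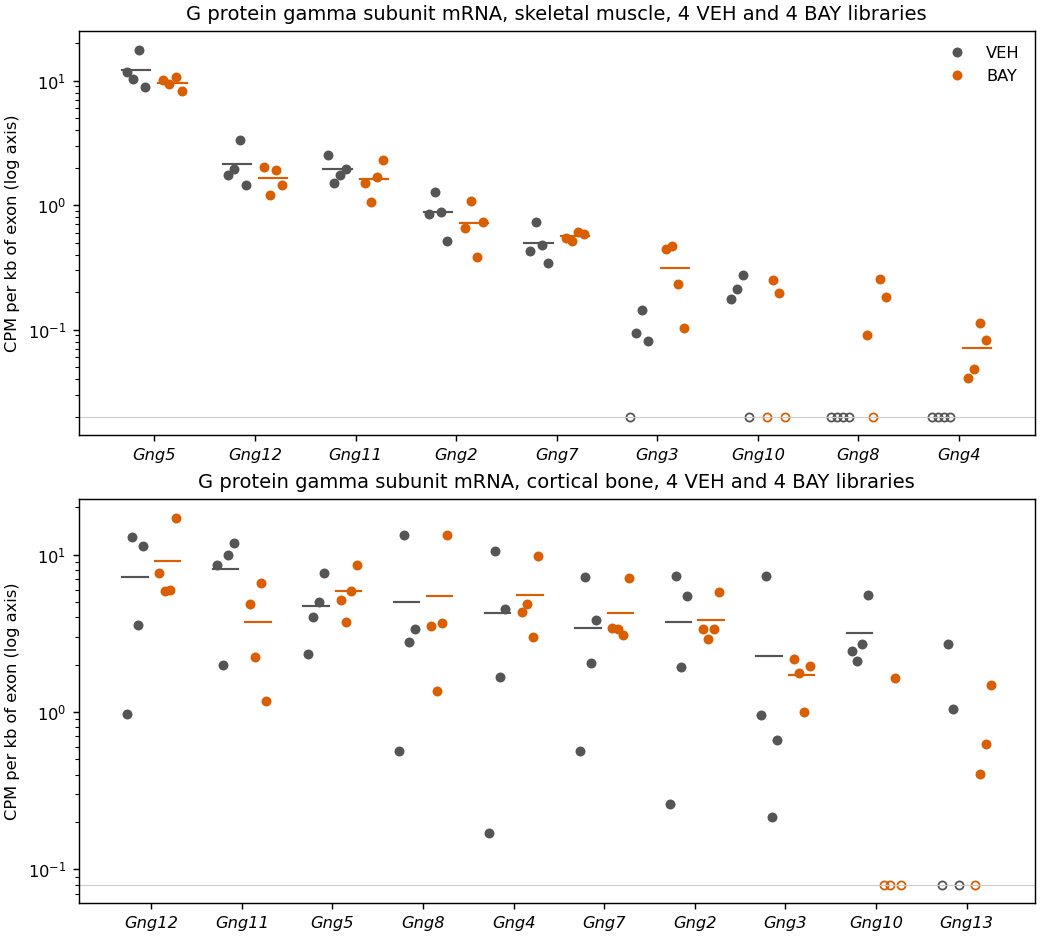
Each filled point is a library (VEH grey, BAY orange) and gives the level of a gamma subunit in CPM per kb of exon on a log axis, for skeletal muscle above and cortical bone below; short lines are group means, drawn where no library was at 0, and open points on the bottom line stand for libraries at 0 or below 0.001 CPM per kb. In muscle the 8 points of Gng5 lie between 8.32 and 17.8 CPM per kb, above every other member, while in bone the members overlap.

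Gng5 lies at chr3:146205562-146211327 on the plus strand of GRCm39. It was covered by 278, 203, 455 and 207 reads in VEH replicates 1 to 4 and by 203, 158, 229 and 164 reads in BAY replicates 1 to 4. These came to 32.4, 28.3, 49.1 and 24.7 CPM and to 27.9, 25.8, 29.5 and 23.0 CPM. VEH replicate 3 was the high library, and the other 7 lay between 23.0 and 32.4 CPM with the groups overlapping. The log2 fold change of BAY over VEH on the deposited scale was -0.30 ± 0.19 (SE; limma, adjusted P = 0.63). Without VEH replicate 3 it was -0.10 ± 0.13. Most exon bases of Gng5 in M39 face exons of Rpf1 on the opposite strand (4190 bases over all transcripts), and whether counting used strand is not stated.

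Gng12, at chr6:66873381-66998334 on the plus strand, had the same high library. It stood at 8.26, 9.34, 15.9 and 6.92 CPM in VEH-treated and at 9.63, 5.71, 9.16 and 6.87 CPM in BAY-treated muscle. The groups overlapped, and the log2 fold change was -0.32 ± 0.26 (SE; limma, adjusted P = 0.691), or -0.08 ± 0.21 without VEH replicate 3. VEH replicate 3 is the library whose column is named as a replacement. Its adipocyte markers (5 of 5 in the table) summed to 320.1 CPM, against 38.2 to 56.1 CPM in the other 7 muscle libraries. Its osteoblast and osteocyte markers (3 of 7) summed to 87.6 CPM, against 12.6 to 25.5 CPM in the others. Its Schwann cell markers (4 of 4) summed to 52.4 CPM, against 18.0 to 30.8 CPM. The part of these lists in the levels of Gng5 and Gng12 was not tested.

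Gng11, the farnesylated member, lies at chr6:4003904-4008445 on the plus strand and had 6 to 20 reads per library. Its CPM was 2.33, 1.39, 1.62 and 1.79 in VEH-treated and 1.38, 0.979, 1.55 and 2.10 in BAY-treated mice, with overlapping groups. Gng2, the partner of beta subunits in the classical beta-gamma pair, lies at chr14:19922627-20027695 on the minus strand. It stood at 3.73, 5.58, 3.89 and 2.27 CPM in VEH-treated and 2.89, 4.73, 1.68 and 3.23 CPM in BAY-treated mice. Its groups overlapped as well. Gng7, at chr10:80784458-80850779 on the minus strand and best known from the striatum, stood at 1.31 to 2.79 CPM in VEH-treated and 1.96 to 2.32 CPM in BAY-treated mice. The log2 fold changes were -0.28 ± 0.39 for Gng11, -0.33 ± 0.36 for Gng2 and 0.24 ± 0.34 for Gng7 (SE; limma). Single libraries set much of their size. With each library left out in turn, Gng11 ran from -0.46 (without BAY replicate 4) to -0.09 (without BAY replicate 2), with -0.14 without VEH replicate 1. Gng2 ran from -0.56 (without VEH replicate 4 or BAY replicate 2) to -0.06 (without BAY replicate 3), with -0.13 without VEH replicate 2. Gng7 ran from 0.08 (without VEH replicate 4) to 0.44 (without VEH replicate 2). None of the 5 abundant members passed the threshold for a call, for which an unadjusted P under 0.05 and at least a 2-fold change were required. For a difference of means in CPM, their exact two-sided permutation P values ran from 0.257 (Gng5) to 0.486 (Gng2 and Gng7), where 4 libraries against 4 allow no P below 0.0286.

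The other 4 members, Gng3, Gng4, Gng8 and Gng10, had few reads in muscle. The muscle table held no gene with under 5 reads over its 8 libraries. A gene with 0 reads in VEH was therefore listed only if its BAY reads reached that number. Gng4 and Gng8 were listed in this way, so a difference between their groups was a condition of their rows, and their values are given as a description. Gng4, at chr13:13958644-14002481 on the plus strand, had 0 reads in all 4 VEH libraries and 1, 1, 3 and 2 reads in the BAY libraries. In CPM the BAY values were 0.138, 0.163, 0.387 and 0.281. The groups did not overlap. Gng4 was the 1 member of 9 called in muscle (limma on the deposited log2 values, adjusted P = 0.319), and 2.43% of all 21011 genes were called. In CPM it was also the 1 member whose groups did not overlap with BAY higher, as held for 4.2% of all genes, and given how the table was filtered nothing is read from either count.

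For a gene at 0 reads in every VEH library the BAY level can only be set against a floor. Pooled over the group, VEH held 0 reads of 33408858, for which 3 reads would be 0.0898 CPM, and BAY held 7 reads of 28281395, or 0.248 CPM. The pooled BAY level of Gng4 stood at 2.76 times that pooled floor, a description of a row that was listed through those reads. The counting error of the 7 BAY reads is left out of this ratio, so it is no lower bound. The fitted log2 fold change of 9.12 ± 2.67 is no bound either, as it rests on the offset of 0.0004 CPM that stands in for 0 reads. With 1 CPM added in its place it was 0.31 ± 0.13 and the gene was not called. No single BAY library rose above the 3 reads of the floor.

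Gng8, at chr7:16625711-16629361 on the plus strand, also had 0 reads in the 4 VEH libraries, and it had 1, 0, 3 and 2 reads in the BAY libraries. The groups met at 0, and the gene was not called (limma, adjusted P = 0.554). On the same terms its pooled BAY level stood at 2.36 times the floor, which is no lower bound either. Gng3, at chr19:8814297-8816558 on the minus strand, had 0, 1.1, 2.2 and 1.1 reads in VEH and 5.3, 4.7, 3.0 and 1.2 reads in BAY. In CPM this was 0, 0.155, 0.237 and 0.132 against 0.724, 0.772, 0.384 and 0.169. The groups overlapped in BAY replicate 4 alone, the exact two-sided permutation P value was 0.0571, and Gng3 was not called (limma log2 fold change 3.55 ± 1.92, adjusted P = 0.57). Without VEH replicate 1, the library at 0 reads, the log2 fold change was 1.36 ± 1.00. As a share of the summed CPM per kb of the members the groups of Gng3 did not overlap, with at most 0.605% in VEH and at least 0.747% in BAY (exact two-sided permutation P = 0.0286, with 9 such tests run in muscle). Whether the groups separated thus depended on the scale, at 1.2 reads in BAY replicate 4. With 4.4 reads in VEH, Gng3 would not have reached the 5 reads of a listed gene without its BAY reads. Its row thus also depended on the group where it was higher, and nothing is read from either P value.

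Most reads of Gng3 were fractions of whole reads. Gng3 shares 1105 exon bases with Bscl2 on the opposite strand, and whether this gave the fractions was not tested. With limma-voom on the recovered reads, Gng3, Gng4 and Gng8 were called, as were 3.33% of all genes. Nothing is read from that count of members, since Gng4 and Gng8 were listed through their BAY reads alone. Gng3, with 4.4 reads in VEH, would not have been listed without its BAY reads. For the same reason no count of members by sign is set against the 55.2% of all genes in muscle with a log2 fold change above 0. The fitted log2 fold changes, which for Gng4 and Gng8 are no bound either, were then 1.65 ± 0.73, 2.32 ± 0.77 and 1.95 ± 0.83 (SE; limma-voom, adjusted P = 0.423, 0.244 and 0.394). With 1 CPM added, 0 of 9 were called by limma, against 0.247% of all genes, and Gng3 and Gng4 had an unadjusted P under 0.05. Neuron markers (3 of 4 in the table) summed to 0.835 to 2.33 CPM in VEH-treated and 0.774 to 1.51 CPM in BAY-treated muscle. Schwann cell markers (4 of 4) summed to 18.0 to 52.4 CPM and 20.2 to 30.8 CPM, and the groups overlapped in both lists.

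Gng10, at chr4:59035088-59041903 on the plus strand, completed the muscle set with 0 to 3.4 reads per library and overlapping groups. Gngt2, the cone photoreceptor gamma gene, had 4, 7, 5 and 4 reads in VEH and 3, 3, 2 and 1 in BAY. Its log2 fold change was -1.0 ± 0.78 (SE; limma, adjusted P = 0.688).

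**Figure D2:**
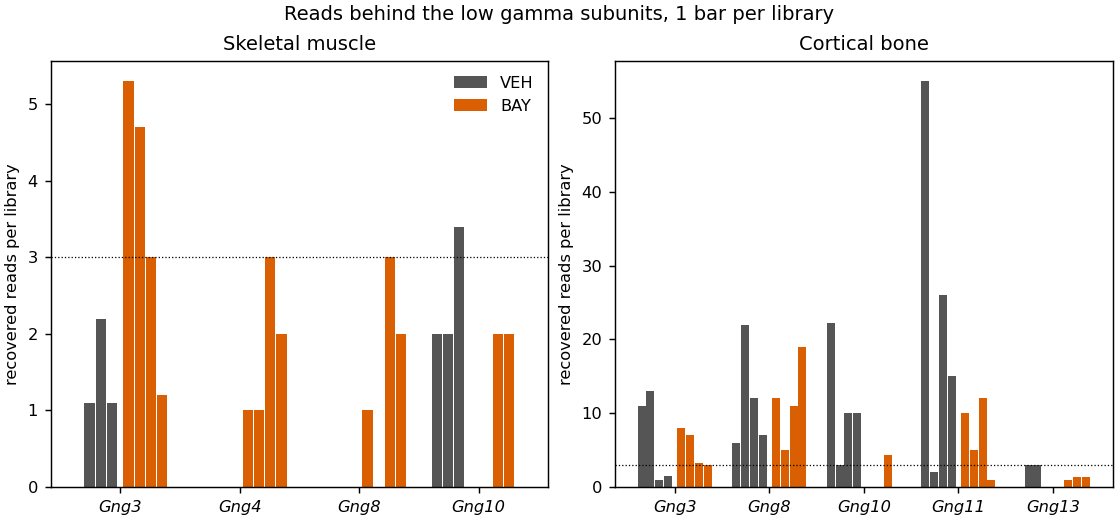
Each bar is the number of recovered reads of a gamma subunit in 1 library (VEH grey, BAY orange, replicates 1 to 4 from left to right), with skeletal muscle on the left, cortical bone on the right and a dotted line at the floor of 3 reads. In muscle Gng4 and Gng8, which were listed through their BAY reads, have bars in BAY alone of at most 3 reads, and in bone Gng10 has 3 to 22.2 reads in VEH against 0 to 4.3 in BAY.

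In cortical bone no single gamma subunit led. By mean CPM per kb over the 8 libraries the highest was Gng12, at 7.22 ± 5.85 CPM per kb in VEH-treated and 9.17 ± 5.42 CPM per kb in BAY-treated mice (SD, n = 4 each). Gng11 followed at 8.13 ± 4.30 and 3.73 ± 2.49 CPM per kb, and Gng5 at 4.74 ± 2.22 and 5.84 ± 2.02 CPM per kb. Gng12 lay above Gng11 in 4 of 8 libraries and Gng11 above Gng5 in 4 of 8, and no pair of neighbours in the order had separate ranges. By mean share of the summed CPM per kb in a library, Gng11 came before Gng12, at 18.9% and 18.0%. Without scaling by length the order was reversed, with Gng12 at a mean of 29.7% and Gng11 at no more than 27.7% in any library. By library, Gng11 led in VEH replicates 1, 3 and 4 and BAY replicate 3, Gng12 led in BAY replicates 1, 2 and 4, and Gng8 led in VEH replicate 2. The 4 libraries that Gng11 led had osteoblast and osteocyte markers summing to 4656, 21610, 14830 and 15360 CPM. In the other 4 libraries these summed to 949 to 1457 CPM. Neutrophil markers (5 of 5 in the table) split the same libraries, at 153, 332, 1398 and 739 CPM against 45.2 to 117 CPM. The part of either list in the level of Gng11 was not tested. The share of Gng5 was 5.74% to 16.9% of the summed CPM per kb, below its 60.5% to 72.1% in muscle in every library.

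The levels of several members in bone followed the reads on olfactory receptor genes. Divided by the olfactory receptor CPM per kb of the same library, Gng2 stood at 0.641 to 1.98 and Gng4 at 0.78 to 1.84 in the 8 libraries. Neither reached 3 times that level anywhere. Gng7 and Gng8 stood above 3 in VEH replicate 1 alone (4.30 and 4.29) and at 0.514 to 1.99 in the other 7. The rod photoreceptor gene Gngt1 stood at 0.31 to 1.15. Outside VEH replicate 1, these members thus stood at about the level of genes best known from the nose or the eye. Over all protein-coding genes of the table the median ratio was 4.55 in VEH replicate 1 and 0.687 to 1.41 in the other 7 libraries.

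Other members stood clear of the olfactory receptor genes in the library where these were lowest. In VEH replicate 1, Gng11 was at 65.2 times their CPM per kb, Gng10 at 18.4 times, Gng5 at 17.7 times and Gng12 and Gng3 at 7.34 and 7.29 times. In VEH replicate 3, the library with the next lowest olfactory receptor level, Gng11 was at 7.14 times and Gng5 at 3.56 times. Gng10 had fallen to 1.92 times there and Gng3, on 1 read, to 0.154 times. Gng12 alone stayed above the olfactory receptor level in 8 of 8 libraries, at 1.73 to 2.55 times outside VEH replicate 1. The make-up of VEH replicate 1 was Gng11 at 51.0%, Gng10 at 14.4%, Gng5 at 13.9%, Gng12 at 5.74% and Gng3 at 5.70% of the summed CPM per kb. The farnesylated Gng11 thus made up more of the gamma mRNA in this library than in any muscle library, where its share ran to 16.7%.

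**Figure D3:**
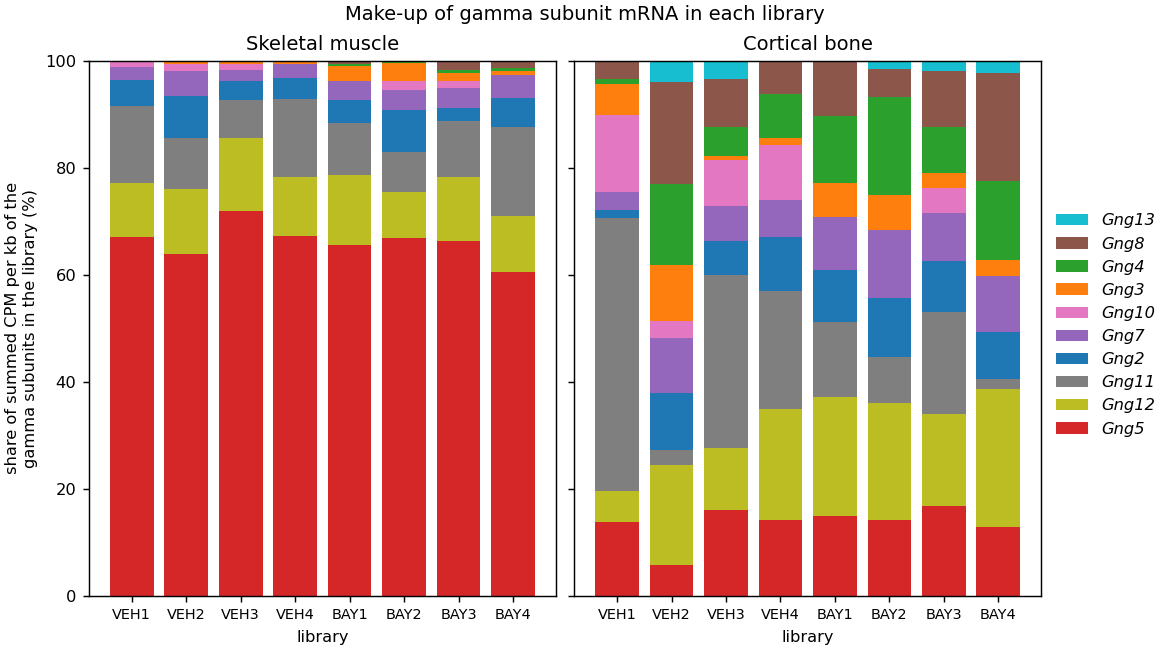
Each stacked bar is 1 library and shows the share of each gamma subunit in the summed CPM per kb of the members, in percent. Gng5 (red, at the base) fills 60.5% to 72.1% of every muscle bar, whereas in bone the make-up differs between libraries and Gng11 (grey) reaches 51.0% in VEH replicate 1.

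**Figure D4:**
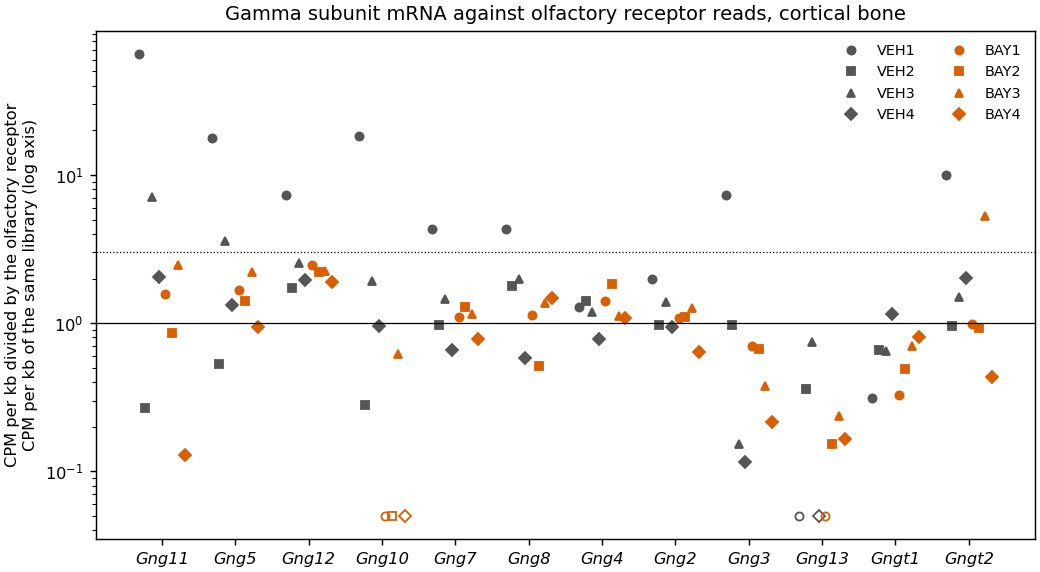
For each gamma gene in cortical bone, a point per library gives its CPM per kb divided by the CPM per kb of olfactory receptor genes in that library, on a log axis; the solid line is a ratio of 1, the dotted line a ratio of 3, and open points at the bottom stand for 0 or a ratio below 0.001. Most points lie near 1, and VEH replicate 1 (grey circles) is the highest point of Gng11, Gng5, Gng12, Gng10, Gng7, Gng8, Gng2, Gng3 and Gngt2.

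Gng10 was the 1 member of 10 called in bone, and 0.64% of all 38933 genes were called, 0.095% with BAY lower. Gng10 had 22.2, 3, 10 and 10 reads in VEH replicates 1 to 4, and BAY replicate 3 had 4.3 reads. BAY replicates 2 and 4 had 0, and BAY replicate 1 held a trace that rounded to 0. Whether the division of reads between genes left those 3 libraries at or near 0 was not tested. In CPM the VEH libraries stood at 3.20, 2.76, 3.54 and 7.28. The BAY libraries stood at 0.000822, 0, 2.17 and 0. All VEH values lay above all BAY values, as held for 0.0514% of genes, and the exact two-sided permutation P value was 0.0286, the smallest that the design allows. The 3 BAY libraries at or near 0 reads of Gng10 had osteoblast and osteocyte markers at 1301, 1090 and 1457 CPM. BAY replicate 3 had 15360 CPM. VEH replicate 2, with the fewest Gng10 reads of its group, had 949 CPM. Neutrophil markers (5 of 5 in the table) summed to 45.2, 69.5 and 117 CPM in BAY replicates 1, 2 and 4. They summed to 739 CPM in BAY replicate 3 and to 62.6 CPM in VEH replicate 2. Muscle fibre markers stood at 29980 and 33320 CPM in BAY replicates 1 and 2, and at 1132 and 73.0 CPM in BAY replicates 3 and 4. The part of these cell types in the difference was not tested. The nearest values across the groups rested on 3 reads in VEH replicate 2 and 4.3 reads in BAY replicate 3.

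On the deposited scale Gng10 fell by 10.84 ± 4.43 on the log2 scale (SE; limma, adjusted P = 0.887), a size set by the offset of 0.0001 CPM. With 1 CPM added the log2 fold change was -1.89 ± 0.75 (limma, adjusted P = 0.9996), and with limma-voom on reads it was -2.96 ± 1.19 (adjusted P = 0.731). Gng10 was the 1 member called by both, and it was lower in BAY. With 1 CPM added 0.501% of all genes were called and 0.0719% were called lower. With limma-voom 3.68% were called and 0.00514% lower, or 2 genes, and without VEH replicate 1 that number was 192. On the deposited scale the call was lost without VEH replicate 3, VEH replicate 4, BAY replicate 1, BAY replicate 2 or BAY replicate 4, where the log2 fold changes ran from -10.89 to -9.37. At the olfactory receptor level a gene as long as Gng10 would have had 9.1, 8.4, 6.9 and 11.1 reads in BAY replicates 1 to 4, so Gng10 lay below that level in all 4. It lay below it in VEH replicates 2 and 4 as well, with 10.7 and 10.4 reads at that level. Part of its reads were fractions, and which other gene shared them was not found.

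Gng11 stood at 7.91, 1.84, 9.21 and 10.9 CPM in VEH-treated bone and at 4.47, 2.07, 6.11 and 1.07 CPM in BAY-treated bone. These rested on 55, 2, 26 and 15 reads and on 10, 5, 12 and 1 reads. VEH replicate 2 fell among the BAY libraries, and the groups overlapped. The log2 fold change was -1.15 ± 1.19 (SE; limma, adjusted P = 0.887), from -1.73 without VEH replicate 2 to -0.69 without BAY replicate 4, and the exact two-sided permutation P value for the CPM was 0.143. In both VEH replicate 2 and BAY replicate 4, which had the fewest reads, Gng11 was below the olfactory receptor level (0.266 and 0.129 times).

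Gng5 stood at 6.47, 11.1, 13.8 and 21.1 CPM in VEH-treated and 14.3, 10.3, 16.3 and 23.6 CPM in BAY-treated bone. Gng12 stood at 4.6, 61.7, 17.0 and 53.9 CPM in VEH-treated and 36.2, 27.7, 28.5 and 81.7 CPM in BAY-treated bone. In both genes VEH replicate 1 was the lowest library and BAY replicate 4 the highest, with the groups overlapping. The log2 fold changes were 0.36 ± 0.69 and 0.79 ± 0.82 (SE; limma, adjusted P = 0.892 and 0.887). Without VEH replicate 1 they were 0.06 ± 0.57 and 0.03 ± 0.59. Other libraries moved them as well. Gng5 was at 0.63 without VEH replicate 4, 0.56 without BAY replicate 2 and 0.16 without BAY replicate 4. Gng12 was at 1.28 without VEH replicate 2, 1.21 without VEH replicate 4 and 0.44 without BAY replicate 4.

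Gng2, Gng4, Gng7 and Gng8 were each lowest in VEH replicate 1. In CPM, Gng2 ran from 1.15 to 32.2 in VEH and 12.8 to 25.5 in BAY, and Gng4 from 0.575 to 35.9 and 10.2 to 33.3. Gng7 ran from 2.16 to 27.6 and 11.7 to 26.9, and Gng8 from 0.863 to 20.2 and 2.07 to 20.4. The ranges of the groups overlapped in all 4 genes. Their log2 fold changes were 0.81 ± 1.00, 1.38 ± 1.14, 0.74 ± 0.87 and 0.44 ± 1.23 (SE; limma), beside a median of 0.84 over all genes of the bone table. Without VEH replicate 1 they were -0.20, 0.22, 0.05 and -0.35, and without VEH replicate 2 they were 1.40, 2.20, 1.27 and 1.17. Relative to the median gene, Gng2, Gng7 and Gng8 had the other sign (-0.04, -0.11 and -0.41).

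The last 2 members had the fewest reads over the 8 libraries. Gng3 had 11, 13, 1 and 1.5 reads in VEH and 8, 7, 3.2 and 3 reads in BAY. Gng13, at or under the floor of 3 reads in every library, whose gene at chr17:25936145-25938380 on the plus strand shares 448 exon bases with Chtf18 on the opposite strand, had 0, 3, 3 and 0 reads in VEH and 0, 1, 1.3 and 1.4 reads in BAY. Neither gene separated the groups. Gngt1 had 1, 19, 9 and 32 reads in VEH and 8, 11, 13 and 24 in BAY, and Gngt2 had 20, 17, 13 and 35 reads and 15, 13, 61 and 8. The reads of both photoreceptor genes lay within the range of the members.

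Of the 10 members in bone, 8 had a log2 fold change above 0, as had 80.9% of all genes, and the members' median was 0.73. After division by the olfactory receptor level of the library, the 8 members with reads in all libraries differed between BAY and VEH by -2.30 (Gng11) to 0.23 (Gng4) on the log2 scale, with exact two-sided permutation P values of 0.286 to 0.83. Without VEH replicate 1 the differences ran from -0.96 (Gng11) to 0.78 (Gng3). This ratio was chosen after seeing the data.

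**Figure D5:**
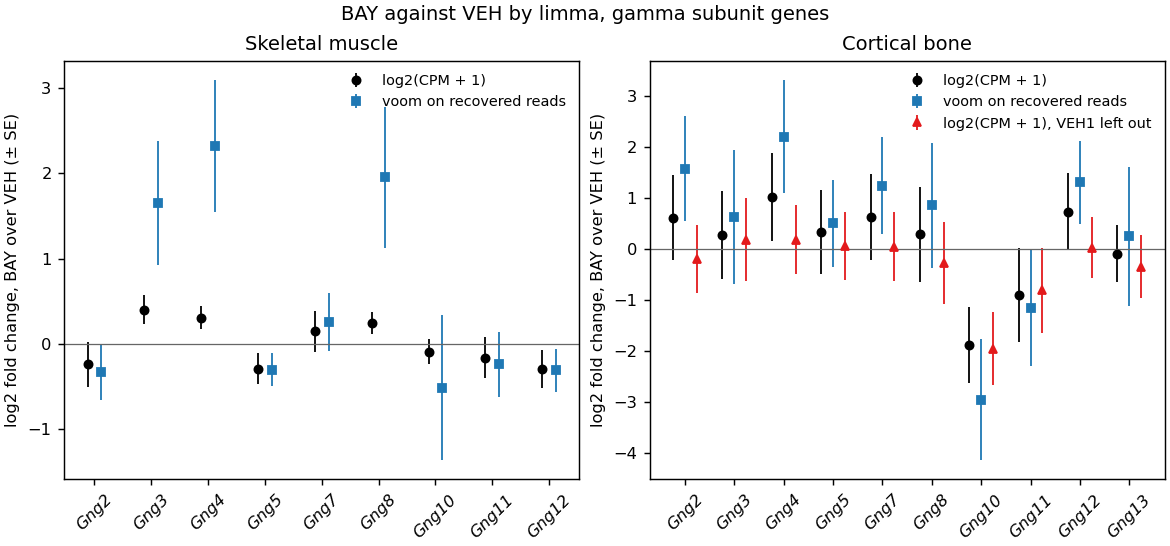
Points are log2 fold changes of BAY over VEH for each gamma subunit, with bars of 1 SE, by limma on log2(CPM + 1) (black), by limma-voom on recovered reads (blue) and, for cortical bone, on log2(CPM + 1) without VEH replicate 1 (red). In muscle Gng3, Gng4 and Gng8 lie above 0 with a size that depends on the scale. Gng4 and Gng8 were listed through their BAY reads alone, and Gng3 would not have been listed without its BAY reads. In bone Gng10, listed through its VEH reads, lies below 0 in all 3 settings, while Gng2 and Gng8 change sign without VEH replicate 1.

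The partners of the gamma subunits were followed as a list of 35 genes, of which 33 had a row in muscle and 35 in bone. In muscle 1 of 33 was called and it was higher in BAY, against 1.33% of all genes. This was Kcnj6, a subunit of the potassium channels that beta-gamma opens, at 0.0831 ± 0.104 CPM in VEH-treated and 0.319 ± 0.173 CPM in BAY-treated mice (SD, n = 4 each) on 12 reads in all. Its log2 fold change was 5.16 ± 2.39 (SE; limma, adjusted P = 0.51), and its groups overlapped. The VEH reads of Kcnj6 were too few for a listed gene, so its row depended on its BAY reads and nothing is read from its call. With limma-voom 2 of 33 were called, Kcnj6 and Rgs11, both higher in BAY, as were 2.33% of all genes. Rgs11, a regulator with a gamma-like domain, stood at 0.367 ± 0.356 CPM in VEH-treated and 0.763 ± 0.371 CPM in BAY-treated mice (SD, n = 4 each), with a log2 fold change of 1.48 by limma-voom. In bone 0 of 35 were called by limma or by limma-voom, beside 0.64% and 3.68% of all genes, and 0 had an unadjusted P under 0.05 by limma, beside 0.64%. At these shares a list of 35 genes would hold few calls or none, so nothing is read from these counts.

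The beta subunits, the obligate partners of gamma, included 0 of 5 called in either tissue. In muscle the most abundant were Gnb2, at 21.2 ± 2.68 CPM in VEH-treated and 25.9 ± 3.87 CPM in BAY-treated mice, and Gnb1, at 24.1 ± 6.71 and 22.9 ± 1.47 CPM. The median log2 fold change of the 16 effectors and partners was 0.44 over the 14 listed in muscle, beside 0.06 over all genes. Of these 14, 12 were above 0, as were 55.2% of all genes, and Plcb3, Adcy4, Grk2, Grk3 and Kcnj6 had an unadjusted P under 0.05 by limma, as had 9.79% of all genes. By limma-voom Plcb3 and Grk2 did not, and the row of Kcnj6 depended on its BAY reads. Grk3, a receptor kinase brought to the membrane by beta-gamma, stood at 6.49 ± 0.409 CPM in VEH-treated and 9.38 ± 0.575 CPM in BAY-treated mice (limma, log2 fold change 0.53 ± 0.16, adjusted P = 0.322). The endothelial markers (6 of 6 in the table) summed to 182 to 209.6 CPM in VEH-treated and 194 to 242 CPM in BAY-treated muscle. Of these 6 markers 3 had an unadjusted P under 0.05, 4 were above 0 and their median log2 fold change was 0.17. Their part in these values was not tested. The 5 prenylation and processing genes and the 5 assembly genes had medians of -0.18 and -0.09 in muscle, with 0 of 10 called. Of these 10, Tcp1, a subunit of the chaperonin that folds beta subunits, had an unadjusted P under 0.05 by limma. It stood lower in BAY, at 71.8 ± 20.5 CPM in VEH-treated and 51.3 ± 4.53 CPM in BAY-treated mice (log2 fold change -0.45 ± 0.17, adjusted P = 0.41).

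The genes whose levels ran most like the leading member were found by Pearson correlation of log2(CPM + 1) over the 8 libraries of a tissue, among genes of at least 10 CPM on average. In muscle the nearest to Gng5 among 5558 genes were Dcn (decorin, of the extracellular matrix; r = 0.983), Decr1 (0.977) and Oxr1 (0.975). Without VEH replicate 3 the same correlations were 0.918, 0.883 and 0.88. In bone the nearest to Gng12 among 16983 genes were Gm43970, Zkscan8 and Gm9926, each at r = 0.999, and 10008 genes reached at least 0.9. The 8 points of each correlation share their library's depth and, in bone, its olfactory receptor level.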

How the data were processed

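Per the labels and the study's methods, reads were aligned with STAR (version 2.7.8a) to mm39, and the authors estimated counts of Ensembl genes by Partek's E/M method and deposited log2 of CPM plus an offset. The lowest of these values put the offset at 0.0004 CPM in skeletal muscle and 0.0001 CPM in cortical bone. Whether counting used strand is not given in the sources used here. Neither table held a gene with under 5 reads over its 8 libraries.

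Log2 and offset were undone, and reads were recovered from the CPM of 1 read, at which 81.4% to 83.5% (muscle) and 86.3% to 88.4% (bone) of values up to 50 reads were whole to within 0.02. CPM per kb used exons of GENCODE M39 transcripts numbered below 300000 within the span of the file. BAY was compared with VEH by limma (version 3.58.1, R version 4.3.3) on the deposited log2 values, two-sided, with the prior variance following mean expression and with Benjamini-Hochberg adjustment over all genes of the table. The study's rule of P under 0.05 and at least a 2-fold change gave the calls, and its test, limma-voom, was run on recovered reads as an alternative. Fold changes are on the log2(CPM + offset) scale unless stated, and other pseudocounts were 1 and 0.1 CPM. Single members were also compared by exact permutation of the 8 libraries, in 9 tests in muscle and 10 in bone on CPM, as many again on shares of the members' sum and, added after seeing the data, 8 in bone on the ratio to olfactory receptor genes. Permutation P values of partners were computed but are not given. Fits were tested on simulated data. Python (version 3.11.15) with pandas (version 2.3.3) and blastn were used besides. Samples were grouped by the titles and library names in the labels. The study gives 4 mice per group for these libraries, with a single tibialis anterior taken from each mouse.

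All members, the photoreceptor genes Gngt1 and Gngt2, and every called gene of the list of 35 partners are named, the other partners by counts. Rgs11, Tcp1, effectors with an unadjusted P under 0.05 and the 2 main beta genes were named after their values were seen. The members and the gene and marker lists were chosen with earlier results of these data known.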

Additional observations from a re-analysis of the deposited data

Results flagged for a closer look

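Among 38 groups of 4 libraries (each member in each group), 5 had 1 library far from the other 3 by Dixon's criterion, which chance meets in about 1 of 20 groups. All 5 were in cortical bone. BAY replicate 4, the library with the fewest reads and the highest olfactory receptor level, stood apart in 3 members. It had 25.5 CPM of Gng2 against 12.8 to 14.8 CPM in the other BAY libraries, 26.9 CPM of Gng7 against 11.7 to 13.0 CPM and 81.7 CPM of Gng12 against 27.7 to 36.2 CPM. VEH replicate 2 had 12 CPM of Gng3 against 0.354 to 1.58 CPM in the other VEH libraries. BAY replicate 3 had 2.17 CPM of Gng10 against at most 0.000822 CPM in the other BAY libraries.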

How the results depend on the processing

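Depth limits the members in cortical bone, where 3 reads were up to 3.23 CPM and each of the 10 members had 81 reads or fewer in every library, and in muscle limits Gng3, Gng4, Gng8 and Gng10, with at most 5.3 reads in a library. The number of called genes in skeletal muscle was 510 by limma on the deposited values, 52 with 1 CPM added and 193 among genes averaging 1 CPM or more. Leaving out each library in turn gave 448 to 567. In cortical bone it was 249, and 82 with that filter, 443 after median centring, 1433 with voom and 3 among genes above 3 times the olfactory receptor level. Leaving out each library in turn gave 115 to 1116, the latter without VEH replicate 2, with 130 without VEH replicate 4, 157 without BAY replicate 1 and 155 without BAY replicate 2. Settings added after seeing the data gave 393 with voom and 283 with 1 CPM added, both without VEH replicate 1 of bone, and 646 and 45 for the same without VEH replicate 3 of muscle. The replicate number as a block gave 489 calls in muscle and 305 in bone. Same-numbered libraries deviated together in neither tissue throughout (r = -0.103 to 0.035 in muscle and -0.084 to 0.486 in bone), so the numbers were not taken as a pairing.

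The share of Gng5 in muscle was 66.2%, or 58.9% with the exons of every M39 transcript, and 65.4% to 67.0% with each library left out. The share of Gng12 in bone was 18.0%, or 29.7% without scaling by length and 33.6% with the olfactory receptor level subtracted, and 16.9% to 19.8% with each library left out.

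The filter at 1 CPM left 5 of 9 members in muscle and 9 of 10 in bone, and the filter at 3 times the olfactory receptor level left none of the 10 in bone, so the others have no value there. In muscle no member changed sign under any setting, and Gng3 was also called with 0.1 CPM added (1.39 ± 0.63) and Gng8 without BAY replicate 2 (9.27 ± 3.04). In bone, log2 fold changes turned under median centring for Gng2 (-0.04), Gng3 (-0.12), Gng5 (-0.49), Gng7 (-0.11), Gng8 (-0.41) and Gng12 (-0.06). They turned as a ratio to the olfactory receptor level for Gng2 (-0.35), Gng3 (-0.43), Gng5 (-0.79), Gng7 (-0.42), Gng8 (-0.72) and Gng12 (-0.36). Without VEH replicate 1 that ratio was above 0 again for Gng3 (0.78), Gng5 (0.13), Gng7 (0.12) and Gng12 (0.10). Gng13 turned with 1 CPM added (-0.10). With a library left out, Gng2 ran from -0.20 to 1.40, Gng3 from -0.01 to 1.68 and Gng8 from -0.35 to 1.17. Without VEH replicate 1, voom and 1 CPM added gave -0.10 and -0.20 for Gng2, -0.36 and -0.28 for Gng8 and -0.71 and -0.35 for Gng13, and voom gave 0.0 for Gng5. Gng10 kept its direction in bone under every setting run. The causes were not tested.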
